A study of Arabidopsis thaliana with 3 samples.

Results

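The short arm of Arabidopsis thaliana chromosome 4 carries a heterochromatic knob, hk4S, which was taken here as 1.6 to 2.4 Mb of the chromosome in the TAIR10 build. All regions of the H2A.W.6 and H2A.W.7 centromeric lists on chromosome 4 with their midpoint inside these limits were members. They were 506 of the series' 18107 H2A.W.6 regions and 567 of its 25393 H2A.W.7 regions, or 1073 of 43500 in all. Membership went by position alone and used no measured value, though the limits were chosen with earlier results of these data known.

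The study immunoprecipitated nucleosomes with antibodies to H2A.W.6 or H2A.W.7 from leaves of plants 2 to 3 weeks old, after digestion of their nuclei with micrococcal nuclease. The libraries were 1 of H2A.W.6, 1 of H2A.W.7 and 1 control, all from leaf and with no genotype, accession or treatment in the labels. Leaf holds many cell types, and the lists cannot show in which of them a region was bound. With 1 library per immunoprecipitation there is no replicate error, so every difference below is a description of these 2 lists and no test was made.

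H2A.W is the class of histone H2A variants that marks heterochromatin in flowering plants, and H2A.W.6 and H2A.W.7 are members of it in Arabidopsis. At its C terminus H2A.W.7, unlike H2A.W.6, has a motif that damage-signalling kinases phosphorylate, as they do in H2A.X. The knob arose when an inversion on the short arm moved pericentromeric heterochromatin away from the centromere. It is present in the Columbia accession, from which the reference genome was made, and is missing in some other accessions. It is rich in transposon-derived pseudogenes, and protein-coding genes lie between them.

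H2A.W.6 regions held 59.0% of the bases of the knob and H2A.W.7 regions held 49.6%, which is 472 kb and 397 kb of 800 kb. The ratio of H2A.W.6 to H2A.W.7 covered length was thus 1.19. Both variants covered the same 339 kb, H2A.W.6 alone covered 133 kb, H2A.W.7 alone covered 57.8 kb and neither covered 270 kb. The Jaccard index, which is the bases in both lists over the bases in either, was 0.641.

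The windows beside the knob were less covered, and the pericentromere, taken whole, was more covered by H2A.W.6 but not by H2A.W.7. For H2A.W.6, cover was 59.0% in the knob, against 10.3% in the distal flank of 1.4 to 1.6 Mb, 25.6% in the euchromatic stretch of 2.4 to 2.9 Mb and 67.3% in the pericentromere proper of 2.9 to 6.1 Mb. For H2A.W.7, it was 49.6% in the knob, against 13.5%, 26.0% and 49.2% in those same windows. The knob thus had 0.876 times the H2A.W.6 cover of the whole pericentromere and 1.01 times its H2A.W.7 cover. In blocks of the pericentromere, given below, H2A.W.7 cover ran from 33.8% to 59.1%. Set against the centromeric parts of the other 4 chromosomes, where H2A.W.6 held 57.9% and H2A.W.7 held 45.2% of the bases, the knob had 1.02 and 1.10 times the cover.

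The label of the euchromatic stretch held for most of it but not for its last 100 kb. From 2.8 to 2.9 Mb cover was 74.4% by H2A.W.6 and 53.0% by H2A.W.7, whereas from 2.4 to 2.8 Mb it was 13.4% and 19.2%. Against 2.4 to 2.8 Mb the knob had 4.39 times the H2A.W.6 cover and 2.58 times the H2A.W.7 cover, and against the whole stretch it had 2.3 and 1.91 times.

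**Figure D1:**
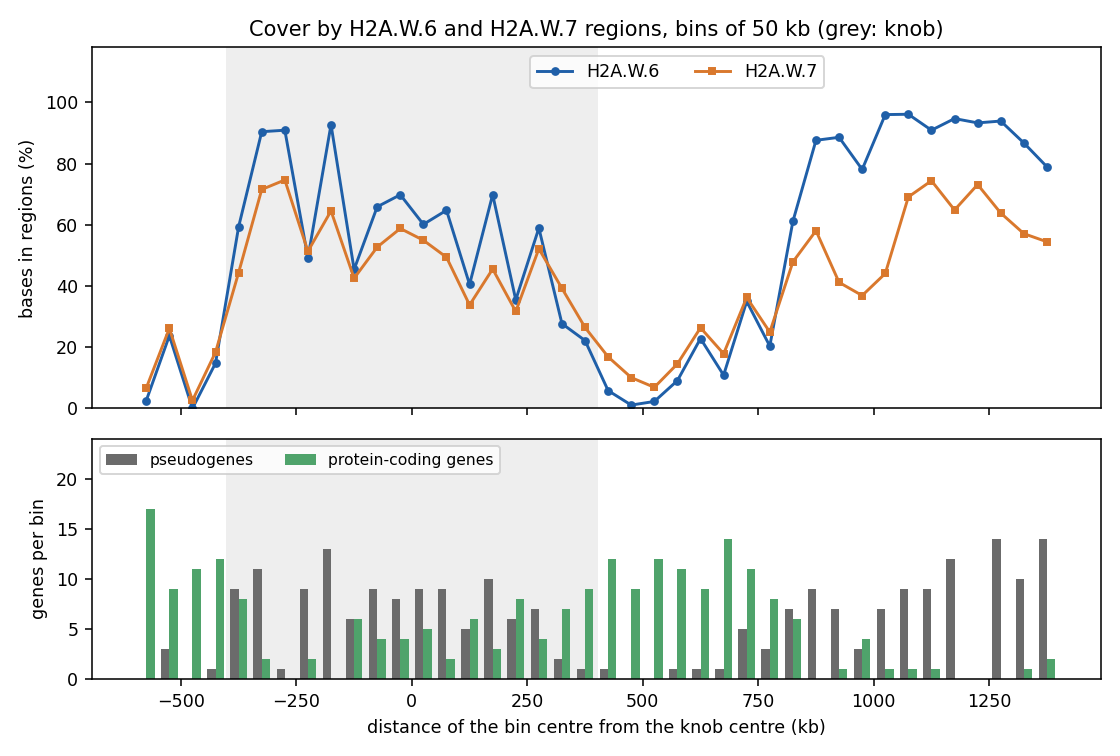
Upper panel, percent of the bases of each 50 kb bin in H2A.W.6 (blue circles) and H2A.W.7 (orange squares) regions, against the distance of the bin centre from the knob centre in kb; lower panel, pseudogenes (grey) and protein-coding genes (green) per bin. Inside the shaded knob H2A.W.6 cover ran from 22.2% to 92.7% and H2A.W.7 cover from 26.5% to 74.7%, with H2A.W.6 higher in 13 of 16 bins.

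The balance of the variants changed with position inside the knob. H2A.W.6 cover exceeded H2A.W.7 cover in 7 of its 8 bins of 100 kb, in 25 of the 32 bins of the pericentromere, and, in bins of 50 kb, in 13 of 16 knob bins and 2 of 10 bins of the euchromatic stretch. At the distal side, from 1.6 to 1.7 Mb, cover was 74.9% by H2A.W.6 and 58% by H2A.W.7. H2A.W.6 cover was 67.9% from 1.9 to 2.0 Mb, 55.2% from 2.1 to 2.2 Mb and 47.2% from 2.2 to 2.3 Mb, so that it was lower in each bin the nearer the bin lay to the centromere. H2A.W.7 cover in those bins was 55.8%, 39.7% and 41.9%. The last bin, 2.3 to 2.4 Mb, was the only one where H2A.W.7 held more, with H2A.W.6 at 25% and H2A.W.7 at 32.9%, a ratio of 0.759. That bin also held 3 pseudogenes and 16 protein-coding genes, against 20 and 10 from 1.6 to 1.7 Mb.

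In the distal 400 kb of the knob cover was 70.5% by H2A.W.6 and 57.6% by H2A.W.7, with a Jaccard index of 0.681. In the proximal 400 kb it was 47.5% and 41.7%, with an index of 0.586. Over the 16 bins of 50 kb, the share of protein-coding bases had a Pearson r of -0.825 with H2A.W.6 cover and -0.840 with H2A.W.7 cover. For pseudogene bases r was 0.488 with H2A.W.6 cover and 0.348 with H2A.W.7 cover. Spearman's rho put the variants in the other order. It was -0.837 with H2A.W.6 and -0.777 with H2A.W.7 for protein-coding bases, and 0.532 and 0.562 for pseudogene bases. These are descriptions of neighbouring bins of 1 chromosome, in which the gene classes compete for the same bases.

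The pericentromere was not uniform, and the knob lay within its range. Its 4 successive blocks of 800 kb, from the side of the knob onwards, had 90.1%, 85.1%, 63.7% and 30.2% H2A.W.6 cover, and 58.8%, 59.1%, 44.9% and 33.8% H2A.W.7 cover. The ratio was 1.19 in the knob, against 1.53, 1.44, 1.42 and 0.896 in these blocks. No 100 kb bin of the knob reached 80% H2A.W.6 cover, whereas 17 of the 32 pericentromeric bins did. In 12 pericentromeric bins H2A.W.6 cover lay inside the range of the knob bins, which was 25% to 74.9%. Their median ratio was 1.09, and their ratios ran from 0.798 to 1.97. Those 12 bins had a median H2A.W.6 cover of 39.6%, against 65.2% in the knob bins, so they were not matched in cover. The 8 knob bins had a median ratio of 1.21, from 0.759 to 1.39, so the ranges overlapped. The 18 pericentromeric bins with H2A.W.6 cover above that of all knob bins had a median ratio of 1.46.

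**Figure D2:**
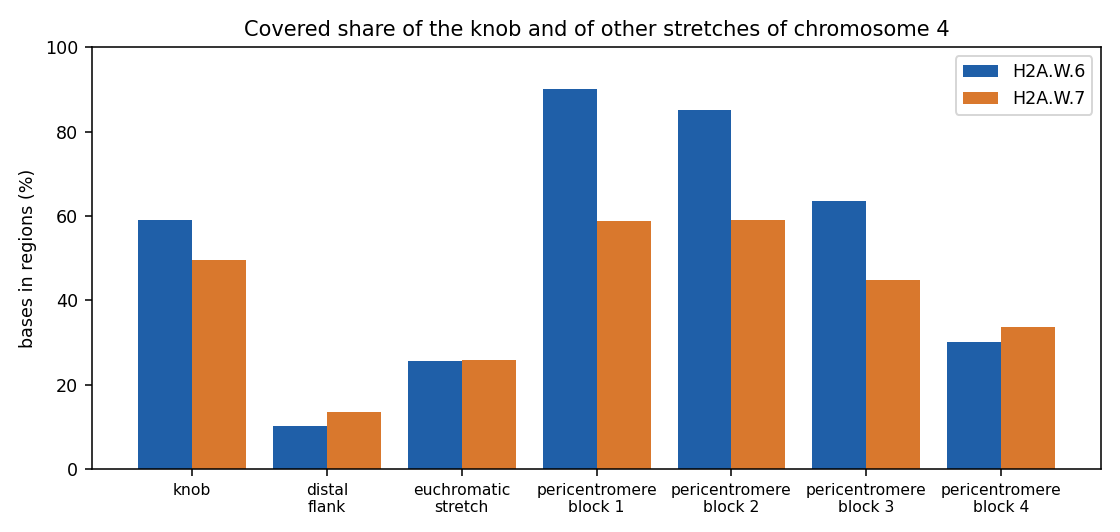
Bars give the percent of bases in H2A.W.6 (blue) and H2A.W.7 (orange) regions in the knob, in the windows on either side of it and in the 4 blocks of 800 kb of the pericentromere proper, block 1 being the nearest to the knob. The knob, at 59.0% and 49.6%, stands above both neighbouring windows. In H2A.W.6 it lies between blocks 3 and 4, at 63.7% and 30.2%, and in H2A.W.7 between blocks 2 and 3, at 59.1% and 44.9%.

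Knob regions of H2A.W.6 were longer than those of H2A.W.7 and fewer. The median H2A.W.6 region was 612.5 bp long, with quartiles of 335 and 1144 bp, and the median H2A.W.7 region 465 bp, with quartiles of 290 and 815 bp. There were 40 H2A.W.6 and 27 H2A.W.7 regions of 2000 bp or more, and they held 29.0% and 22.4% of the covered bases. In the pericentromere such long regions held 54.7% of the H2A.W.6 bases and 18% of the H2A.W.7 bases. The longest H2A.W.6 region of the knob had 9410 bp and the longest H2A.W.7 region 8710 bp, against 33150 bp and 21730 bp in the pericentromere. A gap of only 5 bp, the step of the lists' grid, followed 83 of the H2A.W.6 knob regions and 41 of the H2A.W.7 ones, so counts and lengths depend on small breaks more than cover does.

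The longest H2A.W.6 region of the knob lay at 1945011 to 1954420 of chromosome 4, met the pseudogenes AT4G04050 and AT4G04070, and had 98.2% of its bases in H2A.W.7 regions. The longest H2A.W.7 region, at 1943186 to 1951895, met the same pseudogenes and had 94.7% of its bases in H2A.W.6 regions. Not all long regions were shared to that extent. The H2A.W.6 region at 1806111 to 1813750, of 7640 bp, met 4 pseudogenes from AT4G03850 to AT4G03870 and had 71.8% of its bases in H2A.W.7. Another, at 1684586 to 1689600, over AT4G03780 and AT4G03790, had 60.9%. The H2A.W.7 region at 2003136 to 2011775, of 8640 bp, met AT4G04157, AT4G04165 and AT4G04167 and had 95.9% of its bases in H2A.W.6. All genes met by the 5 longest regions of each variant were pseudogenes.

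Most knob regions of each variant met the other, where 1 bp was enough. An H2A.W.7 region was met, by 1 bp or more, by 424 of the 506 H2A.W.6 knob regions (83.8%, 95% Wilson interval 80.3 to 86.7%). Among the 567 H2A.W.7 knob regions, 504 overlapped H2A.W.6 (88.9%, 86.0 to 91.2%). Where at least 50% of both regions had to overlap, the shares were 36.8% of the H2A.W.6 and 32.8% of the H2A.W.7 regions. The more of a window the other variant covers, the more often regions meet by position alone, and the other variant covered unlike parts of the windows compared next. These intervals cover counting error only, and neighbouring regions are not independent. In the pericentromere the shares were 79.1% for H2A.W.6 (77.1 to 80.9%) and 91.9% for H2A.W.7 (90.7 to 92.9%), and in the euchromatic stretch 80.3% (72.8 to 86.1%) and 69.9% (63.5 to 75.6%).

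Long H2A.W.6 regions held more H2A.W.7 in the knob than in the pericentromere taken whole. The 40 H2A.W.6 knob regions of 2000 bp or more had 82.0% of their bases in H2A.W.7 regions, against 71.5% for the 285 of the pericentromere. At least 90% of the length was in H2A.W.7 for 18 of the 40 knob regions and for 51 of the 285 pericentromeric ones. The 27 long H2A.W.7 knob regions had 90.3% of their bases in H2A.W.6, against 96.5% for 80 in the pericentromere. Long regions were not split by block. Of H2A.W.6 bases in regions of any length, 71.9% in the knob were also in H2A.W.7. In the successive blocks of the pericentromere it was 63.6%, 66.7%, 62.3% and 75.6%, so the knob lay inside that range.

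Regions without a base of the other variant were shorter than shared ones, and most of those of H2A.W.7 met no annotated gene. A longer region meets the other list more often by position alone, so length and sharing are not independent under the 1 bp rule. The 82 H2A.W.6 regions alone had a median of 317.5 bp, against 730 bp for shared ones, and 32 of them (39.0%) met no annotated gene, against 36% of all H2A.W.6 knob regions. The 63 H2A.W.7 regions alone had a median of 290 bp, against 495 bp for shared ones, and 48 of them (76.2%) met no gene, against 37.9% of all H2A.W.7 knob regions. The longest alone were an H2A.W.6 region of 1135 bp on the pseudogene AT4G04105, at 1971031 to 1972165, and an H2A.W.7 region of 965 bp at 1886181 to 1887145, which met no gene. By bases, 57.2% of what H2A.W.6 covered alone lay in pseudogenes and 38.0% outside genes, close to the 53.5% and 41.7% of all its knob bases. Of what H2A.W.7 covered alone, 9.87% lay in pseudogenes and 81.4% outside genes, against 46.0% and 48.8% of all its knob bases. Bases with H2A.W.7 alone can lie only where H2A.W.6 is absent. H2A.W.6 held 89.8% of the knob's pseudogene bases and 53.2% of those outside genes, so few pseudogene bases were left for H2A.W.7 alone. In the pericentromere 82.4% of the bases with H2A.W.7 alone also lay outside genes.

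The reference table placed 224 genes in the knob. They were 115 pseudogenes, 12 pseudogenes annotated as transcribed, 70 protein-coding genes and 27 RNA genes. Covered genes are those with at least 50% of the body inside regions of the variant named.

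Nearly all knob pseudogenes were covered by H2A.W.6, and fewer by H2A.W.7. H2A.W.6 covered 110 of 115 (95.7%, 90.2 to 98.1%), where 86.0% of the 3917 pseudogenes of the genome were covered. H2A.W.7 covered 78 (67.8%, 58.8 to 75.7%), where the genome's share was 64.4%. Of 465 in the pericentromere H2A.W.6 covered 444 (95.5%) and H2A.W.7 311 (66.9%), so the knob's shares were close to those there. Both variants covered 77 knob pseudogenes, H2A.W.6 only 33, H2A.W.7 only 1 and neither 4. The median pseudogene body was 96.1% in H2A.W.6 and 67.4% in H2A.W.7.

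The longest knob pseudogenes differed in how far H2A.W.7 filled them. AT4G04050, of 6054 bp, was 99.9% in H2A.W.6 and 100% in H2A.W.7, and AT4G03770, of 5688 bp, 99.7% and 100%. AT4G04655, the longest at 7527 bp, was 88.1% in H2A.W.6 and 71.5% in H2A.W.7. AT4G03790 had 94.9% and 64.2%, and AT4G04130 91.4% and 69.4%. H2A.W.6 thus covered at least 88.1% of each of these 5, and H2A.W.7 between 64.2% and 100%.

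Among knob genes of 1000 bp or more, the 5 widest differences between the variants were all towards H2A.W.6. In the pseudogene AT4G04380 cover was 98.2% by H2A.W.6 and 9.67% by H2A.W.7, in AT4G04150 97.4% and 16.7%, and in AT4G04270 99.8% and 25%. AT4G03780 had 99.8% and 29.7%, and AT4G03980 had 99.7% and 36.8%. In the other direction the transcribed pseudogene AT4G04375 had 39.7% in H2A.W.6 and 92.4% in H2A.W.7, and the noncoding RNA gene AT4G04223 had 0% and 23.0%. The 5 pseudogenes that H2A.W.6 did not cover, named after their values were seen, were AT4G03824, AT4G04120, AT4G03700, AT4G04396 and AT4G04409, with 0% to 44.3% of the body in H2A.W.6. Of these, AT4G04396 was the one that H2A.W.7 covered, at 33.3% in H2A.W.6 and 77.3% in H2A.W.7. Of the transcribed pseudogenes, H2A.W.6 covered 8 of 12 and H2A.W.7 covered 9, where 26.0% and 27.4% of the 926 in the genome were covered. Of the RNA genes, H2A.W.6 covered 15 of 27 and H2A.W.7 covered 13, where the genome's shares were 6.88% and 9.50% of 5612. In the pericentromere H2A.W.6 covered 23 and H2A.W.7 19 of 32 transcribed pseudogenes. Of 59 RNA genes there, H2A.W.6 covered 14 and H2A.W.7 17.

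**Figure D3:**
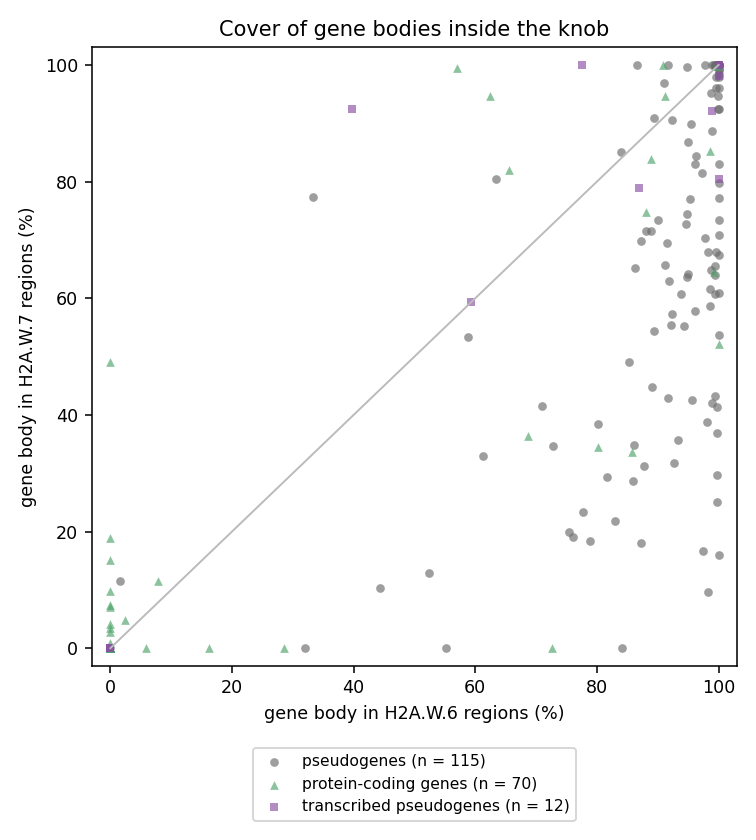
Percent of each knob gene's body in H2A.W.7 regions against the percent in H2A.W.6 regions, for 115 pseudogenes, 70 protein-coding genes and 12 transcribed pseudogenes, with the line of equal cover. Pseudogenes crowd the right edge at a median of 96.1% for H2A.W.6 and spread in H2A.W.7, and 39 protein-coding genes lie at 0% for both.

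Most protein-coding genes of the knob were left free. H2A.W.6 covered 16 of 70 (22.9%, 14.6 to 34.0%), where 3.24% of the 27432 protein-coding genes of the genome were covered, and H2A.W.7 covered 12 (17.1%, 10.1 to 27.6%), where 3.54% were. All 12 were also among the 16, and 39 of the 70 had no base of either variant. Of 203 in the pericentromere H2A.W.6 covered 51 (25.1%) and H2A.W.7 42 (20.7%). Of 92 in the euchromatic stretch H2A.W.6 covered 5 and H2A.W.7 7, and of 49 in the distal flank each covered 2.

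Where a protein-coding gene of the knob was covered, both variants were usually there. The most covered of those of 1000 bp or more are named first. AT4G03830 was 99.5% in H2A.W.6 and 99.8% in H2A.W.7, AT4G03950 91.2% and 94.7%, AT4G04650 90.9% and 100%, and AT4G03740 88.8% and 83.9%. OFP9, a member of the OVATE family of transcriptional repressors, had 57.0% in H2A.W.6 and 99.4% in H2A.W.7, and AT4G03590 had 62.5% and 94.7%. AT4G04110 had 88.1% in H2A.W.6 and 74.7% in H2A.W.7. AT4G04415 and AT4G04402 were higher in H2A.W.6, with 85.8% and 68.6% of the body in it, against 33.7% and 36.4% in H2A.W.7. AT4G04580 had no base in H2A.W.6 and 49.1% in H2A.W.7. Of the shorter genes, named after their values were seen, AT4G04078, of 108 bp, was 100% in both. AT4G03945 was 98.5% in H2A.W.6 and 85.2% in H2A.W.7, AT4G04265 100% and 52.2%, and AT4G04423 72.6% and 0%.

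Cover of a protein-coding gene varied with its neighbours. Of the 8 that stood alone between pseudogenes, H2A.W.6 covered 7 and H2A.W.7 covered 4, with median bodies of 86.9% and 49.5%. Of the 12 in runs of 2, H2A.W.6 covered 3 and H2A.W.7 covered 2. Of the 50 in runs of 3 or more protein-coding genes, each variant covered 6, and 34 had no base of either. The genes alone were also shorter, with a median of 1380 bp, against 2001.5 bp in runs of 3 or more. These runs were grouped after the values of the genes were known.

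The 14 listed genes of the knob, from lists chosen with earlier results known, were not covered by either variant, as were 54 of all 70 protein-coding genes there. The 5 cysteine-rich receptor-like kinases CRK36 to CRK40, membrane receptors of a family linked to stress and pathogen responses, had between 0% and 7.90% in H2A.W.6 and between 0% and 11.6% in H2A.W.7. The calcium-dependent protein kinases CPK21, CPK22, CPK27 and CPK31, which turn calcium signals into phosphorylation, had no base in either. In ATPC1, the gamma subunit of the chloroplast ATP synthase, cover was 0% by H2A.W.6 and 15.1% by H2A.W.7. In PUX4, a UBX-domain protein, it was 0% and 9.87%. FIB, a fibrillin of plastid lipid bodies, RbcX1, a chaperone of Rubisco assembly, and EMB2369, named for embryo-defective mutants, had none of either. The 9 genes listed for the euchromatic stretch and the 7 ankyrin-repeat genes of the distal flank also had none. That was the usual state there, as 73 of all 92 protein-coding genes of the stretch and 42 of all 49 of the flank had none.

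The long stretches of the knob with neither variant lay mostly on protein-coding genes. Of 436 such stretches, 33 were 2000 bp or longer and together held 164 kb, or 60.5% of the uncovered bases. Of these 33, 28 met a protein-coding gene, and 65.1% of their bases lay in such genes, against 3.02% in pseudogenes. The longest, 16605 bp at 2367571 to 2384175, met AT4G04670, AT4G04680, AT4G04690, AT4G04692, AT4G04693 and CPK31. The next, 12860 bp at 2123441 to 2136300, met AT4G04340, EMB2369, AT4G04360 and AT4G04370. The one after, 9010 bp at 2323826 to 2332835, met APR1, an enzyme of sulfate reduction, AT4G04614, ATG8B, a ubiquitin-like autophagy protein, and AT4G04630.

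The classes of sequence were covered to unlike extents by the variants. Pseudogenes, transcribed ones included, made up 35.2% of the knob and had 89.8% of their bases in H2A.W.6 and 64.9% in H2A.W.7. Protein-coding genes made up 16.8% and had 12.1% of their bases in H2A.W.6 and 12.1% in H2A.W.7. The bases outside annotated genes made up 46.3% and had 53.2% in H2A.W.6 and 52.3% in H2A.W.7. The ratio of H2A.W.6 to H2A.W.7 was thus 1.38 in pseudogenes and 1.02 outside genes. In the pericentromere cover outside genes was 62.9% by H2A.W.6 and 48.3% by H2A.W.7, and that of pseudogenes 91.5% and 62.9%. By block of the pericentromere the ratio outside genes was 1.65, 1.38, 1.33 and 0.635, so the knob's 1.02 lay inside that range. With the class make-up of the knob, the class covers of the pericentromere would give 64.8% H2A.W.6 cover and 47.4% H2A.W.7 cover, where the knob had 59.0% and 49.6%.

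H2A.W.7 cover was higher at the ends of genes than inside them, in the knob as in the pericentromere. In the 57 knob pseudogenes of at least 2000 bp, cover by H2A.W.6 was 92.8% in the outer 500 bp of the body and 91.4% in the interior, whereas by H2A.W.7 it was 74.3% and 62.6%. In 232 such pseudogenes of the pericentromere it was 92.4% and 92.6% by H2A.W.6, and 66.2% and 60.0% by H2A.W.7. In the 57 protein-coding genes of at least 1000 bp, cover by H2A.W.6 was 12.8% in the outer 250 bp of the body, 8.90% in the interior and 12.4% in the 250 bp outside it. By H2A.W.7 it was 18.1%, 9.0% and 25.8%. In the 140 such genes of the pericentromere, H2A.W.6 covered 15.2%, 14.6% and 13.4%, and H2A.W.7 covered 13.3%, 10.5% and 17.4%.

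**Figure D4:**
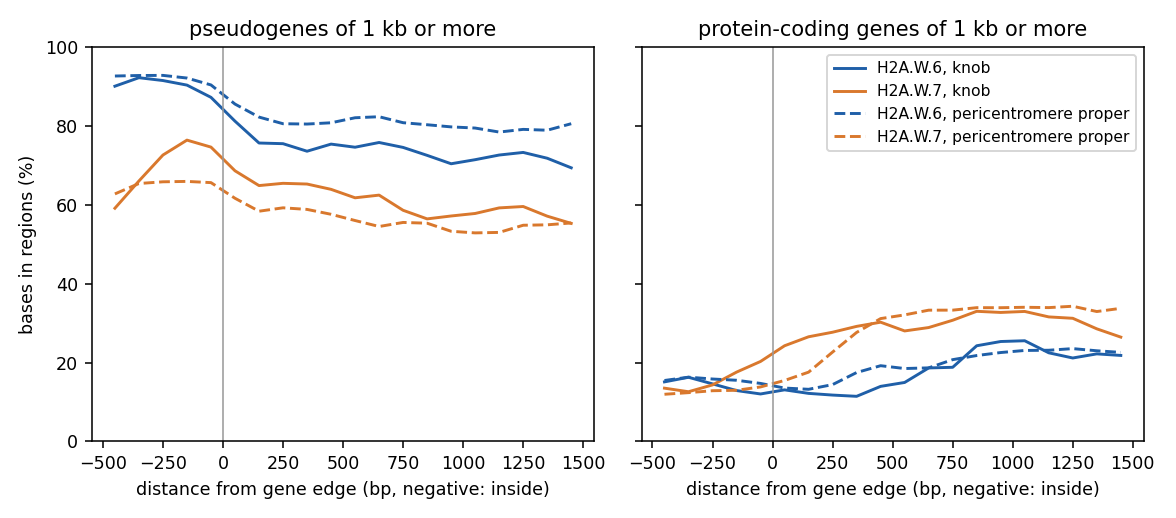
Percent of bases in H2A.W.6 (blue) and H2A.W.7 (orange) regions by distance from the gene edge in bp, negative inside the gene, for pseudogenes (left) and protein-coding genes (right) of 1000 bp or more in the knob (solid) and the pericentromere proper (dashed). At 50 bp outside knob protein-coding genes H2A.W.6 stands at 13.1% and H2A.W.7 at 24.3%.

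Cover changed over a short distance at the distal border of the knob and was low before its proximal limit was reached. On the distal side, cover in bins of 10 kb was 4.15% by H2A.W.6 and 12.4% by H2A.W.7 from 1.58 to 1.59 Mb, 48.3% and 50.9% from 1.59 to 1.6 Mb, 16.5% and 29.9% from 1.6 to 1.61 Mb, and 53.6% and 55.3% from 1.61 to 1.62 Mb. It reached 99.5% and 99.95% from 1.67 to 1.68 Mb. On the proximal side, cover was 55.7% by H2A.W.6 and 55.1% by H2A.W.7 from 2.36 to 2.37 Mb and 0% by both from 2.37 to 2.38 Mb, inside the knob's limit. From 2.39 to 2.4 Mb it was 4.25% and 13.1%. At the outermost genes, AT4G03590, the first inside, was 62.5% in H2A.W.6 and 94.7% in H2A.W.7, and CPK21, the last inside, was in neither. Just outside, AT4G03580 was 77.9% in H2A.W.6 and 68.6% in H2A.W.7 on the distal side, and AT4G04730 was 0% and 81.3% on the proximal side, so that covered genes lay on both sides of the 1.6 Mb limit.

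At the distal limit, the nearest regions with their midpoint inside were an H2A.W.6 region of 1205 bp and an H2A.W.7 region of 415 bp. Those with their midpoint just outside, of 400 bp and 590 bp, ran across the limit. Inside the proximal limit the H2A.W.6 region had 425 bp and the H2A.W.7 region 370 bp, and just outside it 205 bp and 790 bp.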

How the data were processed

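For each of the 2 immunoprecipitations the authors deposited an arm list and a centromeric list, which give where every region starts and ends and hold no score or height. The centromeric lists gave the values of the knob, and the arm lists entered only the counts over all genes and the check of the gene table. Per the submitters' processing notes the build is TAIR10 and bedtools was used. The aligner, the caller, its threshold, the scaling against the control and the treatment of reads from repeats were not given in the sources used here. Depth per library is unknown, and the control library itself was not analysed here. Knob regions lay on a grid of 5 bp, did not overlap and were no shorter than 205 bp (H2A.W.6) or 200 bp (H2A.W.7).

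Cover is the percent of bases of a window in the regions of a variant. Genes, placed by midpoint, came from a RefSeq table of the TAIR10.1 assembly, which pairs locus tags with names and classes. Moving it along chromosome 4 by up to 10000 bp in steps of 500 bp gave the highest H2A.W.6 cover of arm pseudogenes, 58.4%, with no shift, against 54.7% at best elsewhere. Gene coordinates are not printed, region positions are counted from 1, and no sequence is shown because no genome sequence was used here. Transposon genes stand in the table's pseudogene class.

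Named are the members of 5 gene lists (32 genes, all matched), the longest regions, those alone, the longest pseudogenes, the most covered protein-coding genes, the genes with the largest differences, the genes at the borders and the longest empty stretches. The most covered protein-coding genes and the genes with the largest differences were picked among those of 1000 bp or more. Any other gene was named after its values were seen. The members, limits and lists were chosen with earlier results of these data known.

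Calculations used Python 3.11.15, numpy 2.4.6, pandas 2.3.3 and statsmodels 0.14.6 for Wilson intervals, and figures matplotlib 3.10.9. They were tested on simulated lists of 300 regions and 200 genes, where 6 of 6 checks gave the known answer. Alternatives were other limits, longer regions only, merging across gaps, other overlap rules and other limits for a covered gene.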

Additional observations from a re-analysis of the deposited data

How the results depend on the processing

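Of 78 alternative values for 18 results, 56 stayed within a factor of 1.5 of the value reported, or for shares within the interval, and on the same side of 1 for ratios. Of the rest, 18 moved and 4 ratios crossed 1. The ratio of H2A.W.6 to H2A.W.7 was 0.759 from 2.3 to 2.4 Mb alone, and 1.17 in the euchromatic stretch with regions of 500 bp or more. Knob over pericentromere cover became 1.02 for H2A.W.6 against the other 4 chromosomes, and 0.981 for H2A.W.7 with gaps of up to 1000 bp merged. Knob over euchromatic H2A.W.6 cover became 3.7 with limits moved inwards and 4.39 against 2.4 to 2.8 Mb. The share of H2A.W.6 regions meeting H2A.W.7 became 70.2% with an overlap of 50% of the region, 36.8% with 50% of both and 92.9% after merging across 1000 bp, and that of H2A.W.7 became 85.5%, 32.8% and 83.8%. Median length became 965 bp for H2A.W.6 after merging across 100 bp, and, across 1000 bp, 3425 bp (H2A.W.6) and 2185 bp (H2A.W.7). Covered pseudogenes numbered 32 for H2A.W.7 at 90% of the body and 50 with regions of 500 bp or more. Covered protein-coding genes were 7 (H2A.W.6) and 6 (H2A.W.7) at 90%, 10 and 7 from 1.7 to 2.3 Mb, and 27 for H2A.W.7 with any base. The limits of 1.7 to 2.3 Mb leave out 10 protein-coding genes on the distal side and 16 on the proximal side. The counts there are thus of fewer genes and do not show a changed share. Merging, a stricter or looser limit and a smaller window change lengths and counts by construction. Any other cause was not tested for these values. The limits of 2.4 to 2.8, 1.6 to 2.3 and 2.3 to 2.4 Mb were chosen after seeing the data. No paired analysis was possible because each immunoprecipitation has 1 library. Without replicates or depths, a difference between the variants and one between the libraries or their thresholds cannot be told apart.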

Other observations

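The longest stretch of the knob without an annotated gene, picked after its values were seen, was 46.6 kb between AT4G03795 and AT4G03800. H2A.W.6 covered 91.7% of it in 32 regions and H2A.W.7 covered 72.7% in 52 regions, so H2A.W.7 was the more broken up. Shorter gene-free stretches at the proximal side had the opposite balance. The 7.85 kb between AT4G04632 and AT4G04635 was 39.2% in H2A.W.6 and 66.5% in H2A.W.7, and the 6.77 kb between AT4G04630 and AT4G04632 was 7.83% and 55.6%. Among microRNA genes of the knob, also named after their values were seen, MIR3932a was 100% in both variants, and MIR841b was 53.5% in H2A.W.6 and 63.8% in H2A.W.7.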
